A study of Homo sapiens with 22 samples.

Results

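A set of 10 genes of the BCL2 family, which sets whether a cell's mitochondria are opened during apoptosis, were followed across the melanoma cells of the study. They were taken from the gene tables by symbol. The pro-survival genes were BCL2, BCL2L1, MCL1 and BCL2A1, the BH3-only genes were BCL2L11, BBC3, HRK, PMAIP1 and BMF, and the effector was BAX. All 10 were present among the 33538 genes counted in untreated WM989 cells, and all 10 among the 36601 genes counted in WM983B cells and in treated WM989 cells.

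The family works by binding between its members. BCL2, BCL2L1 (BCL-XL), MCL1 and BCL2A1 (BFL-1) hold BAX and its relatives inactive and capture BH3-only proteins, while BCL2L11 (BIM), BBC3 (PUMA), HRK (harakiri), PMAIP1 (NOXA) and BMF occupy the pro-survival proteins, and freed BAX then forms pores in the outer mitochondrial membrane. In melanocytes and melanoma BCL2A1 is a known target of the pigment-lineage factor MITF, PMAIP1 and BBC3 are known p53 targets, and active ERK signalling holds BCL2L11 and BMF low.

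The study followed how WM989 cells pass between a drug-susceptible state and a rare primed state from which resistance to BRAF inhibition arises. WM989 and WM983B are human melanoma cell lines with the BRAF V600E mutation, each grown here from a line derived from a single cell, so each stands for 1 clone. Single-cell RNA was counted in untreated barcoded WM989 cells of 8 chip wells (4 labelled r1 and 4 labelled r2), in 1 library of untreated WM983B cells, and in 8 libraries of WM989 cells given 5 days of no drug (Control), 5 ng/mL TGFB1, 4 µM of the TGF-beta receptor inhibitor LY2109761 (TGFBRi) or 2 µM of the PI3K inhibitor GDC-0941 (PI3Ki), each as r1 and r2. Open chromatin was measured by OMNI-ATAC in untreated WM989 cells sorted as EGFR_High, NGFR-High, EGFR-NGFR-High or Mix, with 3 libraries of each. The methods list a sort negative for both markers and do not name Mix, so whether Mix is that sort or unselected cells was not settled. Per the methods, the wells of untreated WM989 held either unselected cells or cells sorted for high EGFR and NGFR, but the labels do not say which well held which. Cells of a culture were divided among chip wells, so the 8 wells come from fewer cultures, are in part technical splits, and are not 8 independent replicates. In the treatment experiment the sample labels name the libraries of a treatment Mix and Primed (MixControl and PrimedControl, for example), while the deposited cell table names them r1 and r2. Which of these is which was not settled, so r1 and r2 may have started from different populations, although the methods describe replicates handled in parallel.

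The deposited tables held 12531 untreated WM989 cells, 1449 WM983B cells and 40021 treated WM989 cells. Wells of untreated WM989 held 408 to 3841 cells at a median of 45287 to 111820 UMIs (unique molecules) a cell, the WM983B library had a median of 66668, and libraries of the treatment experiment held 3692 to 6273 cells at medians of 13013 to 21720.5. Libraries of 1 experiment shared 19 barcode sequences in untreated WM989 and 194 in the treatment experiment. Cells were called primed or drug-susceptible by the authors from clusters of these same counts, so a level in the primed state beside the level in the susceptible state is a description and carries no test. The labels fit the lineage markers in untreated WM989. There the pigment-lineage gene SOX10 stood at 7.09 CPM (UMIs of a gene per 1000000 UMIs of the same cells) in primed and 130 CPM in susceptible cells, and EGFR at 48.1 and 3.37 CPM. In WM983B these genes differed little between the states, at 192 and 208 CPM for SOX10 and 3.13 and 2.21 CPM for EGFR. The primed marker AXL stood there at 76.2 and 24.2 CPM and the pigment-lineage gene MLANA at 2.40 and 59.8 CPM. Over wells and states of untreated WM989, summed markers of T cells stayed at 0 to 0.432 CPM. Those of other lineages were counted at higher levels, at 28.2 to 46.7 CPM for fibroblast, 0.461 to 30.7 for endothelial and 70.4 to 173 CPM for epithelial markers. The endothelial marker PECAM1 stood at 22.8 CPM in primed and 0.183 CPM in susceptible cells. The 3′ counts are not divided by gene length, so levels are compared between cells and never between genes.

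The stretches before the starts of 4 members are shown because later results turn on them: HRK between states, BCL2L11 under TGFB1, PMAIP1 under PI3Ki and in a single cluster, and BCL2A1 in open chromatin. They are not the 4 members with the largest differences. Of the 10 members, 9 had an entry in the RefSeq promoter table (GRCh38.p14), and MCL1 had none. Each stretch is the 250 bases before the annotated start, read 5′ to 3′ on the gene's strand, with capitals marking the motif matches. The motifs were searched on both strands: the E-box CATGTG, the E-box CACGTG, the FOXO-type TGTTTAC, the CRE half-site TGACGT, the AP-1 site TGANTCA and the interferon-type pair of GAAA separated by any 2 bases.
HRK (chr12:116881442-116881691, minus strand): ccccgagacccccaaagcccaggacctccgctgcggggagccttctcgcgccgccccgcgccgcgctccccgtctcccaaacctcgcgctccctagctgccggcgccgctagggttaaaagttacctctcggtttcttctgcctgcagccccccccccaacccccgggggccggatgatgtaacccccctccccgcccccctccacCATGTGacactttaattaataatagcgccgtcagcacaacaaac
BCL2L11 (chr2:111120664-111120913, plus strand): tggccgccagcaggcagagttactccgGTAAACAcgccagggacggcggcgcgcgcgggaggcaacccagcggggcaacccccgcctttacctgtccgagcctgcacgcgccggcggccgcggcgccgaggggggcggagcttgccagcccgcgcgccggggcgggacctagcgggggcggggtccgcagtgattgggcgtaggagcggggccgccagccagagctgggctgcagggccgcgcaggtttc
PMAIP1 (chr18:59899746-59899995, plus strand): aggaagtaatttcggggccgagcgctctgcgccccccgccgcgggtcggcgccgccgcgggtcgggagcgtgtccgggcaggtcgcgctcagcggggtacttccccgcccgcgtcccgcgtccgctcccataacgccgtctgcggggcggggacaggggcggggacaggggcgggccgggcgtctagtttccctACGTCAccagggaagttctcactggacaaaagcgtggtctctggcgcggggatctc
BCL2A1 (chr15:79971197-79971446, minus strand): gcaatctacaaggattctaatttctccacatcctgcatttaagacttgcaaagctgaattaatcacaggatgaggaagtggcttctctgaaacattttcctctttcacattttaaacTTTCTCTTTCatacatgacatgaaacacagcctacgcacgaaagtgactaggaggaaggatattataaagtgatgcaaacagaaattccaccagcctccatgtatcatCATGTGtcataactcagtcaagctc
HRK held CATGTG 44 bases before its start, BCL2L11 held TGTTTAC on the opposite strand at 223 bases, PMAIP1 held TGACGT on the opposite strand at 56 bases, and BCL2A1 held CATGTG at 25 bases and the GAAA pair on the opposite strand at 133 bases. Over all 35116 starts of the table, CATGTG was found in 9.42%, CACGTG in 6.34%, TGTTTAC in 2.98%, TGACGT in 7.1%, TGANTCA in 6.57% and the GAAA pair in 3.02%. These stretches differed in composition, with 66.4% G and C at HRK, 76.8% at BCL2L11, 72.8% at PMAIP1 and 38.8% at BCL2A1 against a median of 58.0% over all starts. A letter match is a description and says nothing of binding.

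In untreated WM989 the primed cells held more MCL1 and less HRK and BCL2 than susceptible cells. With the wells of r1 and of r2 pooled, these were the members past 2-fold in both among the 9 at 5 CPM or more in either state. Of these 1 was higher and 2 were lower. Over all 10313 genes at that level 9.88% were past 2-fold higher and 6.09% past 2-fold lower in both. Primed cells made up 6.85% to 79.7% of a well.

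Among the pro-survival genes, MCL1 (chr1:150560895-150579738) protects against apoptosis and its protein turns over fast. Over the 8 wells it stood at 47.1, 61.5 and 93.7 CPM (lowest, median, highest) in primed cells and at 22.7, 30.0 and 38.3 CPM in susceptible cells. No primed value overlapped a susceptible one. The ratio of primed to susceptible was 2.18 in r1 and 2.28 in r2. BCL2L1 (chr20:31664452-31723989), which guards mitochondria in the same way, stood at 33.8, 42.6 and 45.1 CPM in primed and 21.7, 28.3 and 35.7 CPM in susceptible cells. It was higher in the primed cells of 8 of 8 wells, by 1.30-fold in r1 and 1.57-fold in r2, with overlapping ranges. BCL2 (chr18:63123346-63320128), the founding member, went the other way, at 2.32, 5.46 and 8.81 CPM in primed and 8.65, 12.4 and 14.6 CPM in susceptible cells. It was lower in primed cells in every well, although the highest primed well passed the lowest susceptible one. With the wells pooled its ratios were 0.379 in r1 and 0.432 in r2. In wells 3, 4, 7 and 8 it stood at 7.39, 5.71, 8.81 and 8.32 CPM in primed cells. Susceptible cells of these wells held 8.65, 8.76, 12.6 and 12.6 CPM, each less than 2-fold apart. In wells 1, 2, 5 and 6 the states were more than 2-fold apart. BCL2A1 (chr15:79960892-79971196) had no common direction: primed cells held 1.02 times the susceptible level in r1 and 0.710 times in r2 and were higher in 2 of 8 wells. So within the pro-survival group MCL1 and BCL2L1 were higher in the primed cells of every well, BCL2 was lower in every well, and BCL2A1 was mixed.

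Of the BH3-only genes, HRK (chr12:116856144-116881441), whose product mainly opposes BCL-XL and BCL2, differed most. It stood at 0.976, 1.93 and 4.85 CPM in primed and 8.75, 14.4 and 20.8 CPM in susceptible cells. The ranges did not overlap, and with the wells pooled the ratio was 0.107 in r1 and 0.0881 in r2. In well 8, with the highest primed level, HRK stood at 4.85 CPM in primed and 19.7 CPM in susceptible cells. Primed HRK moved with the share of primed cells in a well: it stood at 0.976 to 1.40 CPM in the 4 wells with 56.9% to 79.7% primed cells, which weigh most in these ratios, and at 2.45 to 4.85 CPM in the 4 wells with 6.85% to 9.42%. Primed BCL2 split the same way, at 2.32 to 5.21 and 5.71 to 8.81 CPM. Susceptible HRK was also lower in the wells rich in primed cells, at 8.75 and 9.83 against 16.2 and 14.5 CPM in r1. In r2 it stood at 14.4 and 14.2 against 20.8 and 19.7 CPM. Free RNA of susceptible cells was not measured, and its part in the primed levels was not tested. BMF (chr15:40087890-40108892), a BH3-only protein held at the cytoskeleton, was scarce and went the other way, at 1.66, 2.41 and 3.70 CPM in primed and 0.432, 0.724 and 1.04 CPM in susceptible cells. Its ranges did not overlap either, with ratios of 2.99 in r1 and 4.65 in r2, but it lies under the 5 CPM level and was left out of the count above. Over the 10313 genes, 13.6% were higher in primed cells with no overlap between wells and 13.7% were lower with no overlap.

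The other BH3-only genes and BAX differed less. BCL2L11 (chr2:111119378-111168444), a broad binder of the pro-survival proteins, stood at 8.46, 13.5 and 14.5 CPM in primed and 7.72, 10.0 and 12 CPM in susceptible cells and was higher in the primed cells of 6 of 8 wells. BBC3 (chr19:47220822-47232766) was lower in the primed cells of 6 wells and higher in 2. With the wells pooled its ratios were 0.607 in r1 and 0.793 in r2. Its mean log2 ratio was -0.53 pooled, -0.20 with the wells weighted equally and -0.95 with G1 cells alone. PMAIP1 (chr18:59899996-59904305), which mainly binds MCL1 and BFL-1, had pooled ratios of 0.780 in r1 and 1.17 in r2. It was higher in the primed cells of 3 of 8 wells. The r2 wells did not share a direction, with 31.9 against 62.1 CPM in 1 well and 94.2 against 62.7 CPM in another. BAX (chr19:48954815-48961798), the pore former, had ratios of 1.04 and 1.20 and stood between 84.9 and 114 CPM in every well of either state. The labelled r1 and r2 wells also differed within a state: BCL2A1 and BBC3 were higher in every r1 well than in any r2 well, and MCL1 was lower. In these wells MCL1 and HRK set the primed cells apart without overlap, while BAX, the protein on which both sides of the family act, differed by 1.20-fold or less.

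**Figure D1:**
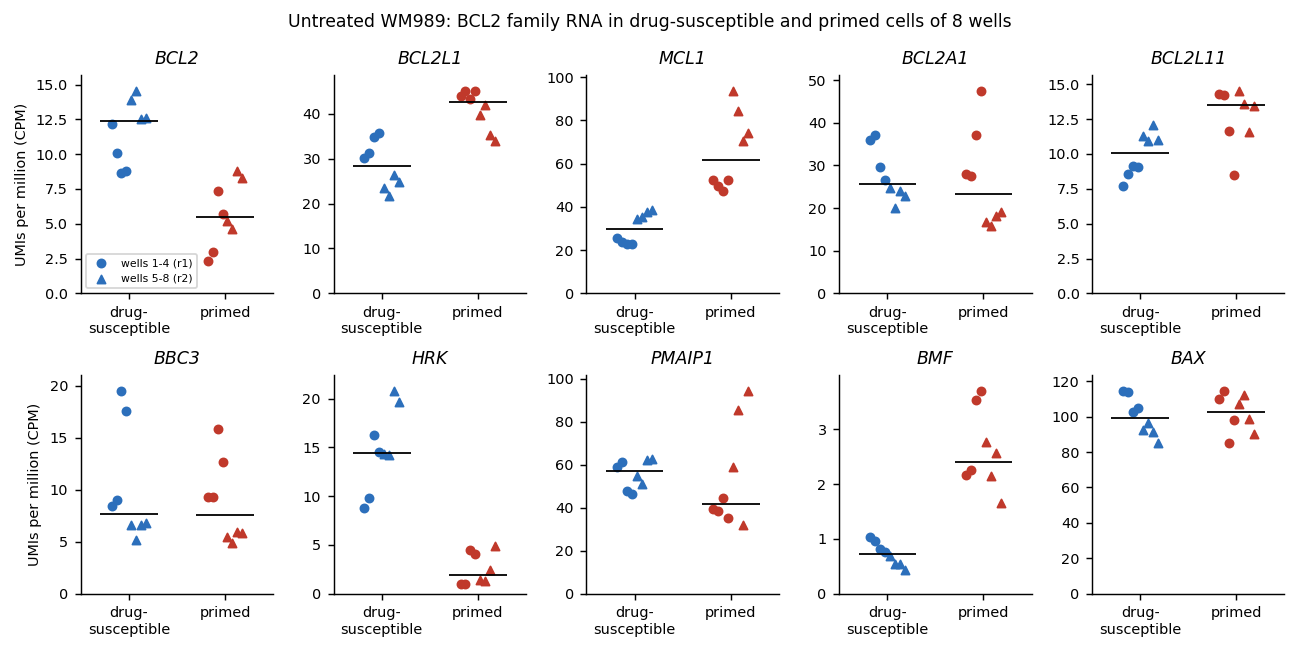
Level of each BCL2 family gene (CPM, axis from 0) in drug-susceptible and primed cells of untreated WM989, with 1 point a chip well (n = 8 wells, which share cultures, r1 as circles and r2 as triangles) and a bar at the median. MCL1 and BMF sit higher and HRK lower in primed cells with no overlap, while PMAIP1, BCL2A1, BBC3 and BAX overlap.

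Cell cycle, mitochondrial share and depth moved with the states, and their part in the differences was not tested beyond the values given here. The median mitochondrial share was 7.95% in primed and 14.1% in susceptible cells of untreated WM989, 7.79% and 10.8% in the treatment experiment, and 7.95% and 7.99% in WM983B. Primed cells were in G1 in 73.7% of cases and susceptible cells in 25.5%, and with G1 cells alone HRK was lower in primed cells by a log2 difference of -3.59 and BCL2 by -1.66. With the 8 wells weighted equally these were -2.51 for HRK and -1.05 for BCL2. After each cell was thinned to 1 fixed number of UMIs, HRK was seen in 13.9% of susceptible and 1.72% of primed cells (48.9% and 7.03% without thinning), MCL1 in 24.5% and 43.0%, BCL2 in 9.94% and 4.01%, and BMF in 0.754% and 2.29%. The orders of these shares matched those of the CPM.

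The untreated Control libraries of the treatment experiment also held WM989 cells without drug, from 94 and 165 primed cells. There MCL1 stood at 80.5 and 97.0 CPM in primed cells of r1 and r2 and at 28.8 and 30.6 CPM in susceptible cells, ratios of 2.79 and 3.17. HRK stood at 23.1 and 16.1 CPM against 27.4 and 24.0 CPM, ratios of 0.844 and 0.671, where the pooled wells had ratios of 0.107 and 0.0881. In r1 the counting intervals of the states overlapped for HRK (15.7 to 32.8 and 26.2 to 28.6 CPM). PMAIP1, mixed over the wells, was higher in primed cells at ratios of 2.74 and 2.15. BAX was lower in primed cells, at 59.6 and 75.3 CPM against 92.5 and 92 CPM (0.644 and 0.818), where the wells had ratios of 1.04 and 1.20. BCL2 had ratios of 0.894 and 0.567, BCL2L1 of 1.30 and 1.26, and BMF of 3.65 and 9.63 from 3 and 8 primed UMIs. BCL2L11 had ratios of 0.803 and 0.898 where the wells had 1.51 and 1.19, BBC3 of 0.672 and 0.830, and BCL2A1 of 1.09 and 1.12. The counting intervals of the states overlapped in both Control libraries for BCL2, BCL2L1, BCL2L11, BBC3 and BCL2A1, and in r1 for BMF, so no direction is read for these. MCL1 thus kept its direction in both experiments, the size for HRK did not recur, and BAX lay the other way. Primed cells were called separately in each experiment, and the difference between experiments was not tested.

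The primed state of WM989 was not uniform in these genes. It consisted of clusters 2, 8 and 9 of the 11 clusters in the authors' annotation, and MCL1 ran from 46.9 CPM in cluster 8 through 62.1 CPM in cluster 2 to 93.3 CPM in cluster 9, in the same order in r1 (39.7, 49.4 and 62.8 CPM) and r2 (58.1, 76.3 and 115 CPM). HRK was at its lowest in the same clusters, though unequally, with 0.536 CPM in cluster 9, 0.995 CPM in cluster 2 and 5.58 CPM in cluster 8. Susceptible cluster 6 had 6.99 CPM, and r1 and r2 differed there: in r1 cluster 8 stood at 5.44 and cluster 6 at 5.13 CPM, within counting error, and in r2 at 5.79 and 9.93 CPM. BMF had its highest level, 3.26 CPM, in cluster 8, not beyond counting error of the 2.62 CPM in cluster 2. BCL2L1 was highest in primed cluster 2 at 45.4 CPM and next in susceptible cluster 3 at 43.1 CPM, which do not differ beyond counting error. This holds for r1 (46.9 and 46.6 CPM) and not for r2, where cluster 2 stood at 43.7 and cluster 3 at 32.8 CPM.

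Among susceptible cells, cluster 10 stood at the top for 5 members: BBC3 at 80.8 CPM, where the next cluster had 17.1 CPM, HRK at 32.6, PMAIP1 at 96.7, BCL2A1 at 68.0 and BCL2 at 16.2 CPM. BAX had its lowest level there, 67.9 CPM. Most of its cells, 368 of 466, were from r1, and the sizes differed between r1 and r2: BBC3 stood at 98 and 20.2 CPM, BCL2A1 at 75.6 and 41.3, HRK at 31.5 and 36.5 and BCL2 at 13.9 and 24.3 CPM. These 4 members were highest in cluster 10 in both r1 and r2. PMAIP1 was highest there in r1 (96.0 CPM), while in r2 it stood at 99.1 CPM against 101 CPM in cluster 6.

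**Figure D2:**
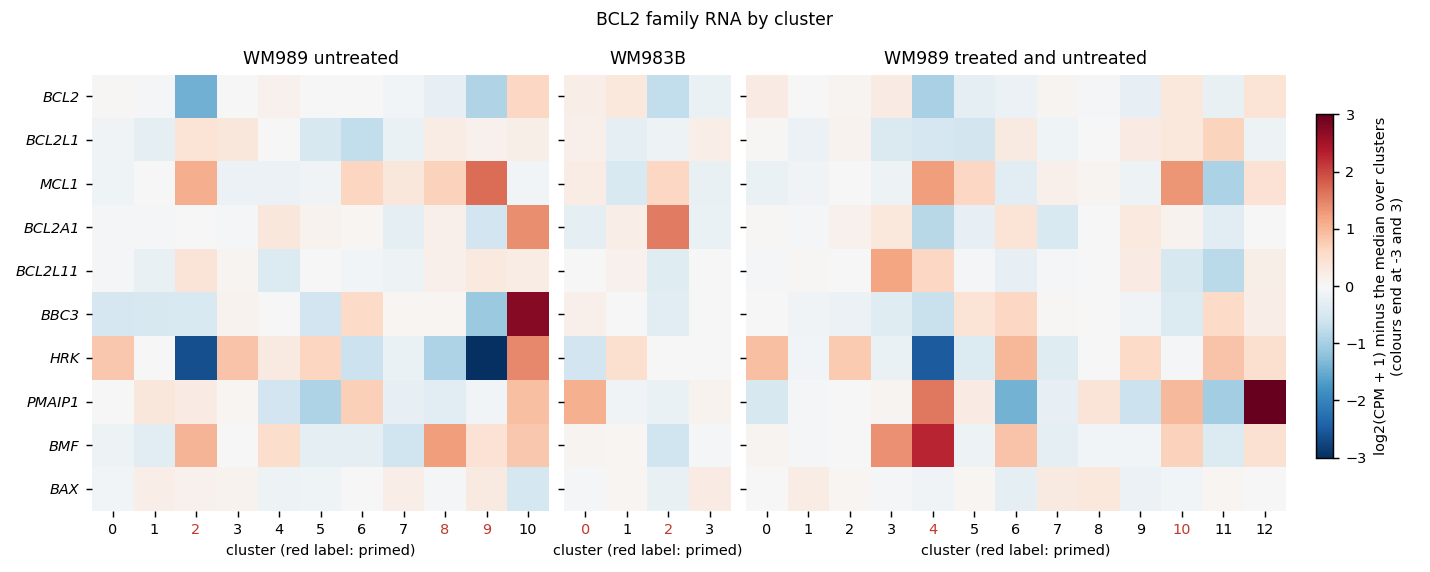
Level of each gene in each of the authors' clusters in untreated WM989, WM983B and treated WM989, as log2(CPM + 1) minus the gene's median over clusters (colour), with primed clusters numbered in red. Colours end at -3 and 3, and PMAIP1 in cluster 12 of the treatment experiment, at 1009 CPM, lies beyond the end.

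In WM983B, with 1 library and no replicate, PMAIP1 was the member past 2-fold among those at 5 CPM or more in either state, and HRK, under that level, was further apart in the other direction. It stood at 169 CPM in primed and 82.8 CPM in susceptible cells, a ratio of 2.05, where 1.78% of 10673 genes were past 2-fold higher and 0.928% past 2-fold lower. MCL1 was higher in primed cells, at 86.6 against 52.7 CPM (a ratio of 1.64), and BCL2L1 at 27.8 against 21.9 CPM (1.27). HRK was again lower in primed cells, at 1.15 against 3.01 CPM (0.382), from 56 and 162 UMIs. BMF, which was higher in the primed cells of all 8 WM989 wells, stood at 0.758 CPM in primed and 0.798 CPM in susceptible WM983B cells, from 37 and 43 UMIs. BCL2 at 17.6 and 19.6 CPM, BCL2A1 at 24.8 and 25.0, BCL2L11 at 8.91 and 10.1, BBC3 at 6.84 and 6.33 and BAX at 125 and 140 CPM differed by less than 1.5-fold between the states. The level of BCL2A1 hid a split, since it reached 67.9 CPM in primed cluster 2 and no more than 25.9 CPM in any other cluster. PMAIP1 was highest in primed cluster 0, at 184 CPM, and MCL1 in primed cluster 2, at 109 CPM. With the clusters of a state pooled, the lines therefore shared the direction of MCL1, BCL2L1 and HRK. For BCL2L1 and HRK it did not hold between all clusters of WM983B. BCL2L1 stood at 28.6 and 22.6 CPM in primed clusters 0 and 2. Susceptible clusters 1 and 3 held 20.8 and 29.1 CPM. HRK stood at 1.01 CPM in primed cluster 0 and 3.17 CPM in susceptible cluster 1. Its counting intervals overlapped between primed cluster 2 (1.07 to 3.45 CPM) and susceptible cluster 3 (1.12 to 3.31 CPM). For BMF (0.534 to 1.04 and 0.577 to 1.07 CPM) and BCL2 (16.4 to 18.8 and 18.4 to 20.8 CPM) the counting intervals of the states overlapped in WM983B, so no direction can be read there.

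The treatment experiment asked how 5 days of TGFB1, TGFBRi or PI3Ki moved WM989 cells between the states. The 3 treatments share the 2 Control libraries, so the comparisons are not independent. Primed cells were 2.26% and 4.47% of Control r1 and r2, 29.1% and 31.3% of TGFB1, 2.26% and 4.32% of TGFBRi and 0.647% and 1.21% of PI3Ki. In a total over all cells of a library, more cells of 1 state and more RNA in each cell cannot be told apart, so the totals are followed by the values within each state.

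Over all cells, TGFB1 changed 8 of the 10 members: BMF, BCL2L11, PMAIP1 and MCL1 rose, and HRK, BBC3, BCL2L1 and BCL2 fell. Over the 18389 genes tested, 16.3% rose and 12.7% fell at an adjusted p of 0.05 (edgeR quasi-likelihood test with r1 and r2 as a term, Benjamini-Hochberg adjustment). BCL2A1 and BAX did not pass, with log2 changes of 0.010 (adjusted p = 0.957) and -0.10 (adjusted p = 0.271). The changes included genes of both arms, since the pro-survival MCL1 rose with the BH3-only BCL2L11, BMF and PMAIP1, and the pro-survival BCL2 and BCL2L1 fell with the BH3-only HRK and BBC3.

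BCL2L11, the gene of BIM, stood at 11.1 and 11.6 CPM in Control r1 and r2 and at 25.6 and 24.1 CPM in TGFB1. Both TGFB1 libraries lay above every other library of the experiment, and the log2 change was 1.11 ± 0.07 (SE, adjusted p = 5.67e-11). BMF went from 0.640 and 0.424 CPM to 3.09 and 2.45 CPM, a log2 change of 2.37 ± 0.18 (adjusted p = 5.38e-10), again with no overlap. PMAIP1 stood at 38.1 and 51.6 CPM in Control and 57.2 and 69.0 CPM in TGFB1 (0.49 ± 0.07, adjusted p = 4.68e-06). Each TGFB1 library was above both Control libraries. MCL1 rose from 29.7 and 32.6 CPM to 40.4 and 46.2 CPM (0.46 ± 0.07, adjusted p = 1.84e-05), likewise without overlap.

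HRK was the member that fell most under TGFB1, from 27.3 and 23.7 CPM in Control to 11.1 and 12.4 CPM, a log2 change of -1.13 ± 0.08 (adjusted p = 2.11e-10). No TGFB1 library reached the HRK level of any other library. BBC3 fell from 16.5 and 12.1 CPM to 9.06 and 8.81 CPM (-0.68 ± 0.09, adjusted p = 5.74e-06), with the Control libraries further apart from each other than the TGFB1 ones. BCL2L1 fell from 24.3 and 23.5 to 18.1 and 18.8 CPM (-0.39 ± 0.08, adjusted p = 0.00064). BCL2 fell from 9.99 and 10.5 to 8.66 and 7.89 CPM (-0.32 ± 0.08, adjusted p = 0.00383), a call lost without Control r2 (adjusted p = 0.110), without TGFB1 r2 (0.104) and with G1 cells alone (0.133).

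**Figure D3:**
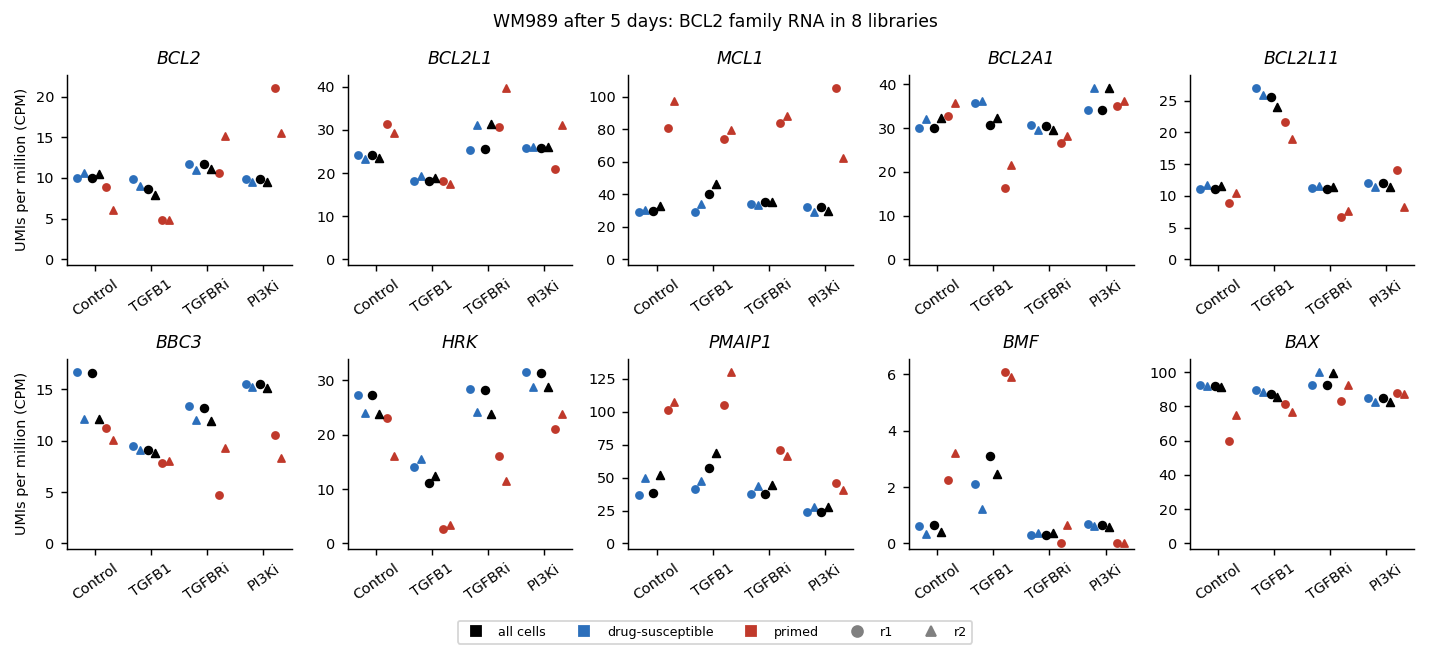
Level of each BCL2 family gene (CPM) in the 8 libraries of the treatment experiment over all cells (black), susceptible cells (blue) and primed cells (red), with r1 as circles and r2 as triangles. Over all cells, BCL2L11 and BMF are highest and HRK lowest in both TGFB1 libraries, and PMAIP1 is lowest in both PI3Ki libraries.

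Within drug-susceptible cells TGFB1 changed 5 members: BCL2L11 and BMF rose and HRK, BBC3 and BCL2L1 fell, where 8.56% of 17914 genes rose and 6.32% fell. BCL2L11 stood at 11.1 and 11.7 CPM in susceptible cells of Control and 27.0 and 25.9 CPM in those of TGFB1 (log2 change 1.20 ± 0.07, adjusted p = 3.12e-11). HRK stood at 27.4 and 24.0 against 14.0 and 15.6 CPM (-0.80 ± 0.08, adjusted p = 6.52e-08). Neither gene overlapped between the treatments. BMF stood at 0.612 and 0.334 against 2.09 and 1.22 CPM (1.78 ± 0.23, adjusted p = 3.42e-06). BBC3 fell by 0.64 ± 0.09 on the log2 scale (adjusted p = 3.10e-05), from 16.6 and 12.1 to 9.48 and 9.08 CPM. BCL2L1 fell by 0.36 ± 0.08 (adjusted p = 0.00263), a call lost without Control r1 (0.134) or without TGFB1 r2 (0.0515).

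MCL1 and PMAIP1, which rose over all cells, did not pass within the susceptible state. MCL1 stood at 28.8 and 30.6 CPM in Control and 29.1 and 34.3 CPM in TGFB1 (log2 change 0.077, adjusted p = 0.547), and PMAIP1 at 37.0 and 49.8 against 41.1 and 47.2 CPM (0.020, adjusted p = 0.891). In each of the 8 libraries both genes were higher in primed than in susceptible cells of the same library, by 2.13-fold to 3.28-fold for MCL1 and by 1.47-fold to 2.76-fold for PMAIP1. Both were thus higher in the state whose share rose under TGFB1, and the part of that share in the totals was not tested.

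A large set of the TGFB1-treated susceptible cells lay in a cluster that was rare without TGFB1. Cluster 3 held 40.3% and 28.8% of the cells of TGFB1 r1 and r2 and 1.35% and 1.60% of Control cells. With the treatments pooled, it had the highest BCL2L11 of all 13 clusters, 30.8 CPM. Of its 4007 cells 2182 and 1619 came from TGFB1 r1 and r2 and 56 and 59 from Control. The pooled level is therefore mostly that of TGFB1-treated cells. Within cluster 3, BCL2L11 stood at 31.8 and 31.9 CPM in TGFB1 r1 and r2. With cluster 3 left out, an alternative added after the data were seen, BCL2L11 in susceptible cells still rose (log2 change 0.96, adjusted p = 3.23e-09) and HRK still fell (-0.89, adjusted p = 5.75e-08). BMF no longer passed (0.67, adjusted p = 0.156), and BCL2 then passed as lower (-0.34, adjusted p = 0.0162).

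Within primed cells TGFB1 changed 4 members: BCL2L11 rose and HRK, BCL2A1 and BCL2L1 fell, where 6.21% of 10930 genes rose and 7.09% fell. The cells differ in more than treatment, because the primed class came mostly from cluster 4 in TGFB1 (28.6% and 30.4% of those libraries) and mostly from cluster 10 in Control, where cluster 4 held 5 and 6 cells. HRK stood at 23.1 and 16.1 CPM in primed cells of Control, 16.0 and 11.6 CPM in those of TGFBRi, 21.0 and 23.9 CPM in those of PI3Ki, and 2.58 and 3.36 CPM in those of TGFB1. Only the TGFB1 libraries fell under 5 CPM, and the log2 change from Control was -2.57 ± 0.29 (adjusted p = 3.41e-09). Primed cells of cluster 10 held 19.5 CPM of HRK in Control, from 248 cells, and 25.7 CPM under TGFB1, from 80 cells, and those of cluster 4 under TGFB1 held 2.46 CPM, from 3254 cells. The low HRK of primed cells under TGFB1 was thus that of cluster 4.

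BCL2L11 in primed cells stood at 8.94 and 10.5 CPM in Control and 21.6 and 19.0 CPM in TGFB1 (log2 change 1.10 ± 0.25, adjusted p = 0.00124). BCL2A1 stood at 32.8 and 35.8 against 16.3 and 21.6 CPM (-0.76 ± 0.18, adjusted p = 0.00152), and BCL2L1 fell by 0.67 ± 0.19 on the log2 scale (adjusted p = 0.0114). No BCL2L11 or BCL2A1 value overlapped between Control and TGFB1. These calls rest on 94 and 165 primed Control cells: BCL2L11 was lost without Control r1 (0.0601) or TGFB1 r1 (0.0612), BCL2A1 without Control r1 (0.0613) or TGFB1 r1 (0.109), and BCL2L1 without Control r1 (0.208), Control r2 (0.0950) or TGFB1 r2 (0.394). With DESeq2 HRK alone passed among the members. MCL1 stayed high in primed cells of every treatment, at 62.2 to 105 CPM, and its log2 change under TGFB1 was -0.14 (adjusted p = 0.598). BMF gave 3 and 8 UMIs in primed cells of Control and 122 and 132 UMIs in those of TGFB1, at 2.24 and 3.22 against 6.06 and 5.90 CPM (log2 change 1.14, adjusted p = 0.101).

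The change under TGFB1 was then compared between the states in 1 fit, a test added after the data were seen. State was called after treatment from these same counts, so the fit compares classes of cells and does not follow the same primed cells. It differed for 4 members of 10, where 5.49% of 18502 genes moved more upward in primed cells and 4.49% more downward. HRK fell further in primed cells, by a log2 difference of -1.70 ± 0.25 (adjusted p = 1.25e-09), and BCL2A1 differed by -0.90 ± 0.17 (adjusted p = 4.84e-06). In susceptible cells BCL2A1 stood at 30.0 and 32.1 CPM in Control and 35.7 and 36.2 CPM in TGFB1, higher without overlap but not called (adjusted p = 0.0715, past 0.05 in 3 of 14 alternatives), while it fell in primed cells. PMAIP1 and BAX lay the other way, at 0.35 ± 0.11 (adjusted p = 0.0181) and 0.42 ± 0.12 (adjusted p = 0.00853). Neither passed within a state in the edgeR fits. The adjusted p in susceptible and primed cells was 0.891 and 0.231 for PMAIP1 and 0.562 and 0.190 for BAX. The change of cluster named above applies here too. In the same edgeR fit 0 members passed for a difference between the states under PI3Ki or TGFBRi, where 1.21% and 0.551% of genes did, and 4 members of each had an unadjusted p under 0.05.

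PI3Ki changed 3 members over all cells, PMAIP1 downward and HRK and BCL2A1 upward, where 5.83% of genes rose and 6.83% fell. Cells in G1 made up 34.0% and 32.7% of Control r1 and r2 and 43.6% and 44.1% of PI3Ki. With G1 cells alone these 3 members still passed, and the part of phase in the size of the changes was not tested. PMAIP1 stood at 38.1 and 51.6 CPM in Control and 23.9 and 27.7 CPM in PI3Ki, with no overlap (log2 change -0.69 ± 0.07, adjusted p = 3.76e-07). HRK stood at 27.3 and 23.7 against 31.4 and 28.7 CPM (0.34 ± 0.08, adjusted p = 0.00394), and this call was lost without r1 and r2 as a term (0.105), without Control r2 (0.154) or without PI3Ki r2 (0.127). BCL2A1 stood at 30.0 and 32.2 against 34.0 and 39.1 CPM (0.34 ± 0.07, adjusted p = 0.00252), lost without PI3Ki r2 (0.284).

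The same 3 members passed under PI3Ki within susceptible cells, where 5.89% of genes rose and 6.22% fell. These cells were not compared cluster by cluster. PMAIP1 stood at 23.8 and 27.6 CPM in those cells (log2 change -0.65, adjusted p = 9.91e-07). HRK (0.33, adjusted p = 0.00413) was lost there without r1 and r2 as a term (0.102), without Control r2 (0.162), without PI3Ki r1 (0.0520) or without PI3Ki r2 (0.117), and BCL2A1 (0.34, adjusted p = 0.00279) without PI3Ki r2 (0.293). In primed cells, of which PI3Ki left 25 and 70, PMAIP1 was the member called, at 45.6 and 40.4 CPM against 101 and 107 CPM in Control (-1.39 ± 0.22, adjusted p = 0.000115). Of all genes 1.32% fell there, and the call was lost without PI3Ki r2 (0.108). PMAIP1 was therefore lower under PI3Ki in both states. In susceptible cells under TGFB1 it was close to Control.

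TGFBRi called no member over all cells, where 2.53% of genes were called in either direction, none in susceptible cells (2.81% of genes) and none in primed cells (0.375%). At an unadjusted p under 0.05 the same edgeR fits gave 4, 2 and 4 members, and DESeq2 called 0 in each after adjustment. The nearest over all cells was BCL2L1, at 25.5 and 31.5 CPM against 24.3 and 23.5 CPM in Control (log2 change 0.27 ± 0.08, adjusted p = 0.0733), which passed when no filter on low counts was used (0.0152) and without TGFBRi r1 (log2 change 0.42, adjusted p = 0.00117). In primed cells it was PMAIP1, at 70.7 and 66.1 CPM against 101 and 107 CPM (-0.62, adjusted p = 0.0532), which passed without PI3Ki r1 (0.0249) or PI3Ki r2 (0.0210). BMF gave 0 and 2 UMIs in the 118 and 271 primed cells of TGFBRi and none in those of PI3Ki, too few for a fold.

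Set directly against each other over all cells, TGFB1 and PI3Ki differed for 9 members, where 18.7% of genes were higher and 15.3% lower in TGFB1. This contrast was not run within a state. BMF (log2 difference 1.99), PMAIP1 (1.17), BCL2L11 (0.97) and MCL1 (0.37) were higher in TGFB1. HRK (-1.47), BBC3 (-0.90), BCL2L1 (-0.61), BCL2 (-0.35) and BCL2A1 (-0.33) were lower. BAX was the member that did not pass, at 87.4 and 85.3 CPM in TGFB1 and 84.9 and 82.6 CPM in PI3Ki. Within susceptible cells MCL1 stood at 29.1 and 34.3 CPM in TGFB1 and 32.0 and 29.2 CPM in PI3Ki. There BCL2 (9.93 and 8.98 against 9.85 and 9.46 CPM) and BCL2A1 (35.7 and 36.2 against 34.0 and 39.1 CPM) overlapped too. Levels of BMF, PMAIP1, BCL2L11, HRK, BBC3 and BCL2L1 did not overlap there. The BCL2A1 call was lost without PI3Ki r2 (adjusted p = 0.130), and that of BCL2 without PI3Ki r2 (0.0572) or TGFB1 r2 (0.0735).

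**Figure D4:**
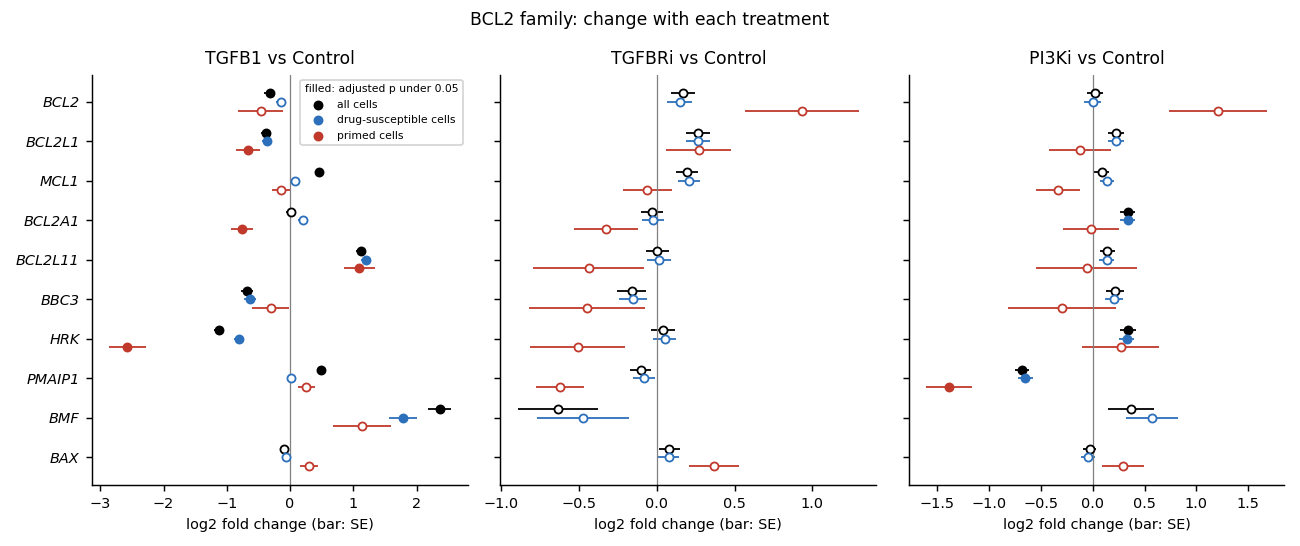
Log2 change from Control under TGFB1, TGFBRi and PI3Ki for each gene, in all, drug-susceptible and primed cells (points, with bars of 1 SE and filled points past an adjusted p of 0.05). HRK under TGFB1 runs from -0.80 in susceptible to -2.57 in primed cells, and BMF in primed cells under TGFBRi and PI3Ki is left out because it gave 0 to 2 UMIs.

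Over the 13 clusters of the treatment experiment, PMAIP1 spanned the widest range. It stood at 1009 CPM in cluster 12, which held 114 of the 40021 cells, at 119 CPM in cluster 4 and at 13.9 CPM in cluster 6. Cluster 12 was found in all 8 libraries, with 8 to 28 cells in each and PMAIP1 between 679 and 1471 CPM. Without cluster 12, an alternative added after the data were seen, PMAIP1 over all cells rose by 0.64 under TGFB1 (adjusted p = 3.78e-08) and fell by 0.59 under PI3Ki (adjusted p = 1.59e-06).

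With the treatments pooled, cluster 6 had the highest values of HRK, at 38.1 CPM, of BCL2A1, at 43.7 CPM, and of BBC3, at 20.4 CPM. None lay beyond counting error of the next cluster (35.4 CPM in cluster 0, 41.0 in cluster 3 and 19.5 in cluster 11). Cluster 6 was the lowest for PMAIP1 and for BAX, at 70.2 CPM. The primed clusters 4 and 10 differed from each other most in HRK, at 2.44 and 17.8 CPM. Their MCL1 did not differ beyond counting error, at 77.7 and 82.4 CPM, the highest levels of all clusters. BMF was highest in cluster 4, at 6.06 CPM, and next in cluster 3, at 2.77 CPM, the clusters common under TGFB1. Cluster 4 also held the lowest BCL2 (4.50 CPM) and BCL2A1 (17.9 CPM), and its BBC3 (7.81 CPM) was not beyond counting error of cluster 10 (9.41 CPM).

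Open chromatin at gene starts passed the test between sorted populations for few genes of any kind. That no member passed is near the share of all genes and says nothing particular of the members. A start within 1 kb of a called peak in all 12 libraries was found for all 10 members and for 12633 genes in all, and no member passed in any population against Mix (limma, adjusted p of 0.05), where 0.317% of genes passed in EGFR_High, 0.681% in NGFR-High and 0.831% in EGFR-NGFR-High. At an unadjusted p under 0.05 limma gave 1 member in EGFR_High, 0 in NGFR-High and 1 in EGFR-NGFR-High, and 1478, 1517 and 1422 of all genes. Each library was centred on its median. Without centring, which moved the median of all starts in NGFR-High by 0.15 on the log2 scale, 126 starts were higher and 14 lower in NGFR-High (48 and 38 with centring), 15 and 24 in EGFR_High (25 and 15) and 89 and 16 in EGFR-NGFR-High (76 and 29), and again no member passed.

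BCL2A1, whose promoter sequence is shown above, came nearest. Its fold enrichment over background stood at 22.0, 15.6 and 17.4 in Mix, 23.0, 24.6 and 25.0 in EGFR_High, 19.5, 18.8 and 17.4 in NGFR-High and 31.8, 25.0 and 30.8 in EGFR-NGFR-High. Each EGFR-NGFR-High and EGFR_High library was above all Mix libraries, while NGFR-High overlapped Mix. The log2 difference from Mix was 0.61 ± 0.16 in EGFR-NGFR-High (adjusted p = 0.0570) and 0.48 ± 0.16 in EGFR_High (adjusted p = 0.208). HRK had the lowest enrichment of the members, at 9.39 to 16.6 over the 12 libraries, and BCL2L1 the highest, at 77.7 to 129, with its summit 811 to 823 bases upstream of the start. MCL1 stood at 55.1 to 73.3 and BCL2L11 at 46.7 to 70.0.

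**Figure D5:**
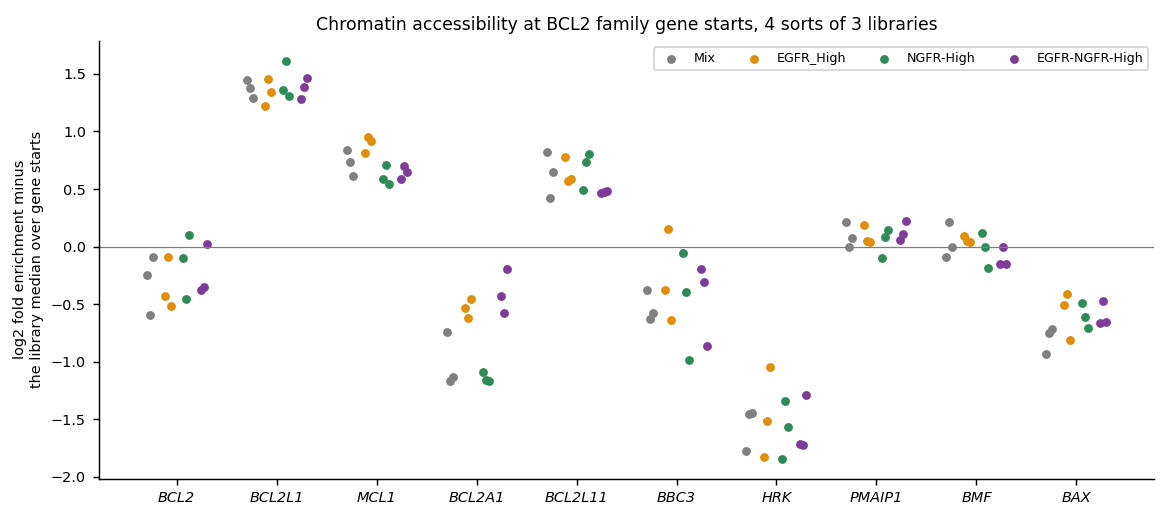
Log2 fold enrichment of the ATAC peak at each member's start, minus the library's median over gene starts, in Mix, EGFR_High, NGFR-High and EGFR-NGFR-High cells, with 1 point a library (n = 3 each). For BCL2A1 every EGFR-NGFR-High and EGFR_High library lies above every Mix library, while for HRK the sorts overlap.

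Genes elsewhere in the apoptosis pathway are given as counts, and no test compares them with the members or with all genes. Under TGFB1 over all cells, 3 of the 12 other family genes tested rose and 1 fell, and 1 of 10 caspase and apoptosome genes rose. Of the genes of inhibitor-of-apoptosis proteins 2 of 5 rose. In a list of death receptors and proteins that act with them, 3 of 5 genes rose. Among upstream regulators 3 of 11 rose and 1 fell. Over all genes 16.3% rose and 12.7% fell. Counts of 1 of 10 and 3 of 12 are near these shares. Those changed most were FOXO1 (log2 change 1.97), a transcription factor that can drive BCL2L11, BIRC3 (1.42), an inhibitor of apoptosis, and the family member BOK (0.82), against MITF (-0.46) and the BH3-only BID (-0.27). Within susceptible cells 0 of 5 genes of inhibitor-of-apoptosis proteins and 1 of 5 genes of the death-receptor list rose. Within primed cells 1 of 5 of each list rose. In susceptible cells BIK, another BH3-only gene, rose by 1.35, FOXO1 by 1.01 and BOK by 0.41. Within primed cells FOXO1 rose by 1.07, and DDIT3, a stress factor known to induce BH3-only genes, fell by 2.36. Under PI3Ki the mitophagy genes of the family BNIP3 (-1.45) and BNIP3L (-0.46) fell. Both also fell under TGFBRi, by 0.38 and 0.32, and BNIP3 fell within susceptible cells under TGFB1 (-0.42). In untreated WM989 the largest ratio of primed to susceptible among these genes was that of BIRC3, 15.8, at 6.43 in r1 and 41.8 in r2, and the smallest that of MITF, 0.146. In WM983B none of those at 5 CPM or more in either state was past 2-fold, and BIRC3 was not among them.

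As a description of likeness, each member's levels over the 11 clusters of untreated WM989 were correlated with those of 7021 other genes, and the same pairs were read over the 13 clusters of the treatment experiment. Clusters of 1 experiment share libraries and depth. The genes nearest HRK were MTURN (r = 0.983, and 0.689 in the treatment experiment), HOXB9 (0.980, 0.693) and RPL24 (0.980, 0.448). Nearest MCL1 were CREB3L2 (0.974, 0.753), RAB22A (0.968, 0.872) and NCEH1 (0.967, 0.912). Likeness held in the treatment experiment for some neighbours of a member and not for others. For BCL2L1 they were ZNF524 (0.937, 0.477), TMEM219 (0.935, 0.630) and TOMM7 (0.922, 0.702), for BBC3 SNHG7 (0.951, 0.450), TMEM159 (0.939, 0.629) and SNHG19 (0.923, 0.074), and for BAX NDUFA11 (0.945, 0.266), ZDHHC5 (0.945, 0.349) and CENPB (0.944, 0.883). For PMAIP1 they were NKTR (0.841, 0.232), RANBP9 (0.819, 0.664) and MAFG (0.795, 0.369), and for BCL2A1 COX4I1 (0.960, 0.225), SNHG19 (0.916, 0.218) and P2RX4 (0.916, 0.447). For BCL2 they were RPL27 (0.960, -0.14), RGS10 (0.959, 0.139) and RPL35 (0.952, -0.16), and for BCL2L11 ATP5MG (0.911, -0.39), BCAT1 (0.906, 0.430) and ZFAND3 (0.889, -0.12). BMF lay under the level used and was not searched.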

How the data were processed

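The deposited UMI counts were aligned to hg38 and counted by the authors in Cell Ranger (version not given in the sources used here), and the authors filtered cells in Seurat on genes, likely doublets and mitochondrial share before deposit. The deposited clusters and states were used as given. ATAC peaks were called by the authors in each library with MACS2 2.1.1.20160309 after Bowtie2 2.3.4.1, and their deposited fold enrichment and -log10 q were read. The deposited percent of mitochondrial UMIs per cell, computed by the authors, was read for depth checks alone.

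Counts were summed by well or library, cluster and state and divided by the total to give CPM. Intervals for single sums are exact Poisson at 95% and cover counting error only. Treatments were tested on summed counts over all genes with edgeR 4.0.16 in R 4.3.3 (TMM, filterByExpr, quasi-likelihood, treatment and r1 or r2 as terms), with Benjamini-Hochberg adjustment over all genes tested. SEs are the log2 change divided by the root of F. ATAC log2 fold enrichment, centred on each library's median, was tested with limma 3.58.1. Per the methods, cells of 1 well were split over the 4 treatments, and r2 minus r1 correlated between treatments at 0.256 to 0.365, so r1 and r2 pair the libraries. They come from 1 cell line, and p-values measure the spread between these libraries alone. Genes were named as the 10 members, all accounted for, then the members of fixed pathway lists with the largest changes and the 3 nearest genes by correlation. Members and lists were chosen with earlier results of these data known. DESeq2 1.42.0 and the other settings are given in the closing section.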

Additional observations from a re-analysis of the deposited data

Results flagged for a closer look

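The log2 change of HRK under TGFB1 differed between primed and drug-susceptible cells by -1.70 (edgeR interaction term, adjusted p = 1.25e-09), that of BCL2A1 by -0.90, that of PMAIP1 by 0.35 and that of BAX by 0.42. Each stands out because the change from Control differed between states of the same libraries. State was called after treatment from these same counts, so these are differences between classes of cells and not effects followed in the same cells. The TGFB1 changes of PMAIP1 and BAX passed within neither state. The primed class was mostly cluster 4 under TGFB1 and mostly cluster 10 in Control, and its part in the differences of BCL2A1, PMAIP1 and BAX was not tested. For HRK, primed cells of cluster 10 held 19.5 CPM in Control and 25.7 CPM under TGFB1, and those of cluster 4 under TGFB1 held 2.46 CPM. BMF had a ratio of primed to susceptible of 0.950 in WM983B, while the ratio was above 1 in all 8 WM989 wells. It stands out because the lines lay on opposite sides of 1, but the WM983B intervals overlap, and the difference was not tested. No well stood apart by Dixon's criterion in the 20 groups of 8 wells examined.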

How the results depend on the processing

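Over the alternatives run, 1668 member values kept their side of the threshold or moved by less than their error. Another 29 lost a call, 25 gained one and 18 moved further. Of 1608 tested member values under an alternative, 88 changed sign, and none of these was called. Counts of members called kept within 1.5 times in 160 comparisons and moved in 17. With no filter on low counts TGFBRi called 1 member in place of 0, over all cells and in susceptible cells. With G1 cells alone PI3Ki called 5 in place of 3, both over all cells and in susceptible cells. DESeq2 left 1 of 4 members under TGFB1 in primed cells. Leaving out 1 library at a time gave 7 to 8 members under TGFB1 over all cells, 4 to 6 in susceptible and 1 to 4 in primed cells, 1 to 4 under PI3Ki over all cells, 1 to 5 in susceptible and 0 to 1 in primed cells, 7 to 9 between TGFB1 and PI3Ki, 0 to 1 under TGFBRi in each class and 0 to 0 for ATAC. For ATAC, what was left out each time was 1 replicate number, which is 1 library of each sort. Without r1 and r2 as a block, PI3Ki called 2 members over all cells and 2 in susceptible cells, with HRK lost in both. The counts in the other comparisons were 8, 5, 4, 9, 1 and 0. ATAC libraries of the same number did not deviate together (r from -0.0499 to 0.129 over 18 pairs, against -0.119 to 0.0587 for other numbers). With that replicate block, 1 member, BCL2A1, passed in EGFR-NGFR-High against Mix (adjusted p = 0.0463). The cause of these changes was not tested. Depth limits the primed cells of Control, TGFBRi and PI3Ki most, where BMF gave 0 to 8 UMIs a library. The counts over all genes, against which the members are read, moved more. Without the block, calls went from 466 to 40 under TGFBRi and from 2328 to 649 under PI3Ki over all cells, from 2665 to 1189 under TGFB1, 503 to 47 under TGFBRi and 2170 to 570 under PI3Ki in susceptible cells, and from 41 to 9 under TGFBRi and 195 to 87 under PI3Ki in primed cells. DESeq2 gave 1750, 317 and 1423 under TGFB1, TGFBRi and PI3Ki in susceptible cells and 606 (of 1454) under TGFB1 and 17 under TGFBRi in primed cells. With no filter TGFBRi gave 748 over all cells, and under TGFB1 in primed cells 910 rose and 612 fell (679 and 775 with the filter). With G1 cells alone TGFBRi gave 148 over all cells and 210 in susceptible cells. A window of 500 bases gave 62 starts in EGFR-NGFR-High in place of 105. Leaving out 1 library gave 3164 to 6377 calls under TGFB1 over all cells (5324 with all libraries), 168 to 1146 under TGFBRi, 719 to 3298 under PI3Ki and 3822 to 7282 between TGFB1 and PI3Ki (6242). In susceptible cells it gave 988 to 3722 under TGFB1 (2665), 206 to 1247 under TGFBRi (503) and 632 to 3286 under PI3Ki (2170), and in primed cells 584 to 1726 (1454), 17 to 63 (41) and 96 to 239 (195). For ATAC, leaving out 1 replicate number, and so 1 library of each sort, gave 5 to 48 in EGFR_High (40). It gave 14 to 127 in NGFR-High (86) and 26 to 91 in EGFR-NGFR-High (105).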
